A study of Homo sapiens with 12 samples.

Results

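The E2F transcription factors were followed across the whole study as 10 genes, the 8 family members E2F1 to E2F8, the dimer partner gene TFDP1 and the pocket protein gene RBL1. They were taken by name from the deposited count table, in which all 10 were found among 61209 gene names. E2F proteins bind the promoters of genes needed for DNA replication and mitosis, most of them as dimers with a DP protein such as the one TFDP1 encodes. Pocket proteins, which are RB and its relatives encoded by RBL1 and RBL2, hold E2F in check until cyclin-dependent kinases phosphorylate them late in G1 phase. E2F1, E2F2 and E2F3 are known mainly as activators, E2F4 and E2F5 as pocket-bound repressors of resting cells, E2F6 as a repressor that works with polycomb proteins, and E2F7 and E2F8 as atypical repressors that bind DNA without a DP partner.

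The study used A375, a cell line grown from a human melanoma, and measured its RNA by sequencing in 12 libraries, 3 in each of 4 groups. The groups were OGDH-depleted cells starved of glucose for 5 h, OGDH-depleted cells with glucose, control cells starved of glucose for 5 h, and control cells with glucose. The product of OGDH is the subunit that first acts on 2-oxoglutarate in the citric acid cycle. The titles call the depleted cells KO while the series text speaks of knockdown, and neither gives the reagent or the number of clones. Nor do the labels say that replicates were cultured separately, so p-values reflect the spread among these libraries alone, and that spread may be technical.

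The libraries held 21556273 to 25546615 counted fragments, and all 10 E2F genes were among the 18526 gene names tested. Levels are given as CPM, the normalised read count in which each library's fragments are scaled to one common total. TMM scaling was applied as well, except for the cell type markers below. OGDH stood at 32.3, 33.9 and 32.3 CPM in the starved OGDH-depleted libraries and 38.1, 45.1 and 36.3 CPM in the OGDH-depleted libraries with glucose, against 129, 133 and 130 CPM in starved control libraries and 156, 142 and 166 CPM in control libraries with glucose. SOX10, MITF, CSPG4 and PAX3, which mark the melanocytic lineage, were expressed in every library. The summed level of the 10 melanoma markers was 742 to 825 CPM in starved OGDH-depleted libraries, 859 to 968 CPM in OGDH-depleted libraries with glucose, 457 to 486 CPM in starved control libraries and 844 to 978 CPM in control libraries with glucose. SOX10 averaged 299.7 CPM in starved control cells and 664 CPM in control cells with glucose, and the part of these markers in the results was not tested. The TMM factors were 0.828, 0.839 and 0.932 in starved control libraries, against 1.098, 0.983 and 1.078 in control libraries with glucose. TMM scaling would therefore narrow this difference. Of the markers 8 of the 10 reached 1 CPM in at least 1 library, whereas the pigment genes PMEL, MLANA, TYR, DCT and TYRP1 stayed between 0 and 2.34 CPM. Of the markers of other cell types, 0 of 5 blood genes reached 1 CPM, and the summed level of the 5 blood genes was 0.247 to 0.538 CPM in starved OGDH-depleted libraries, 0.278 to 0.606 CPM in OGDH-depleted libraries with glucose, 0.974 to 0.991 CPM in starved control libraries and 0.270 to 0.695 CPM in control libraries with glucose. At 1 CPM in at least 1 library stood 2 of 5 fibroblast, 1 of 5 epithelial and 1 of 5 endothelial genes. The epithelial gene was KRT8, which was well expressed. The summed epithelial genes stood at 48.4 to 90.3 CPM in starved OGDH-depleted libraries and 68.6 to 81.4 CPM in OGDH-depleted libraries with glucose. They stood at 60.9 to 130 CPM in starved control libraries and 50.2 to 111 CPM in control libraries with glucose. The summed endothelial genes stood at 4.98 to 5.196 CPM in starved OGDH-depleted libraries, 3.53 to 4.24 CPM in OGDH-depleted libraries with glucose, 2.41 to 2.66 CPM in starved control libraries and 3.30 to 4.37 CPM in control libraries with glucose, and their part in the results was not tested. In bulk RNA, fewer cells in a cell cycle phase and less RNA per cell cannot be told apart.

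In 3 of the groups the libraries deviated from each other along the GC content of genes. The library that deviated most in each, called outlying here, was replicate 3 of the starved OGDH-depleted cells, replicate 3 of the starved control cells and replicate 2 of the control cells with glucose. In the starved OGDH-depleted group replicates 1 and 3 deviated almost equally, to opposite sides of replicate 2 (root mean square 0.25 and 0.27 log2 units), so that 1 library does not clearly stand apart there. The slope of the deviation, in log2 units per 10% of GC, was 0.17, 0.04 and -0.21 in starved OGDH-depleted replicates 1, 2 and 3, -0.10, -0.15 and 0.25 in starved control replicates, and 0.18, -0.30 and 0.12 in control replicates with glucose, while it lay between -0.0029 and 0.0036 in the OGDH-depleted libraries with glucose. The share of counts from mitochondrial genes also varied within these groups, from 3.06% to 9.71% in starved OGDH-depleted libraries, 5.16% to 6.98% in OGDH-depleted libraries with glucose, 4.11% to 14.4% in starved control libraries and 4.97% to 14.6% in control libraries with glucose. E2F1, E2F4 and E2F2 have transcripts of 62.5%, 59.3% and 57.5% GC, above the median of 47.9% over tested genes, whereas those of E2F5 and RBL1 hold 38.3% and 40.0% GC. Member calls and signs that change without these 3 libraries are given both ways. For the gene lists only some of the changed counts are given. The part of mitochondrial RNA in any result was not tested.

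Starvation of control cells moved 5 of the 10 members, 4 of them downward. E2F2, E2F8, E2F1 and TFDP1 fell and E2F7 rose in starved control cells, so that 5 of 10 members passed an adjusted p of 0.05 in edgeR's quasi-likelihood test, 1 higher and 4 lower. Over all tested genes 34.5% passed in this comparison, 17% higher and 17.5% lower. The median log2 fold change of the 10 members was -0.37, against -0.023 over all tested genes. For the same 5 genes the 3 starved control libraries did not overlap the 3 control libraries with glucose, a separation seen upward in 19.4% and downward in 20.8% of all tested genes.

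In OGDH-depleted cells the same 5 h without glucose left 2 of 10 members past the threshold, E2F7 higher and E2F2 lower. Of all tested genes 7.18% passed there, 2.42% higher and 4.76% lower. The median over the members was 0.030, against 0.020 over all tested genes. Libraries did not overlap for 2 members that were higher (E2F7 and RBL1) and 3 that were lower (E2F1, E2F2 and E2F4), and for 20.6% and 19.1% of all tested genes.

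With glucose present, OGDH-depleted cells differed from control cells in 1 of 10 members, E2F8, which was lower. Of all tested genes 3.04% passed, 1.59% higher and 1.45% lower, and the median was -0.14 over the members and -0.014 over all tested genes. Libraries did not overlap for 1 higher member (E2F6) and 4 lower ones (E2F2, E2F3, E2F8 and TFDP1), and for 14.2% and 12.9% of all tested genes. Without glucose, 5 of 10 members differed between OGDH-depleted and control cells, with E2F2, E2F8, TFDP1 and RBL1 higher and E2F7 lower. Of all tested genes 28.7% passed, 13.7% higher and 15% lower, and the median was 0.32 over the members and 0.0042 over all tested genes. Libraries did not overlap for the 4 higher members and for E2F7 and E2F3 below the control, and for 19.1% and 19.6% of all tested genes.

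The difference between the 2 starvation responses, tested as an interaction, was called for 4 of 10 members, above 0 for E2F2, E2F8 and TFDP1 and below 0 for E2F7. Of all tested genes 17.3% passed, 8.3% above 0 and 8.95% below. These comparisons share libraries with one another, so their values are set side by side and are not independent.

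**Figure D1:**
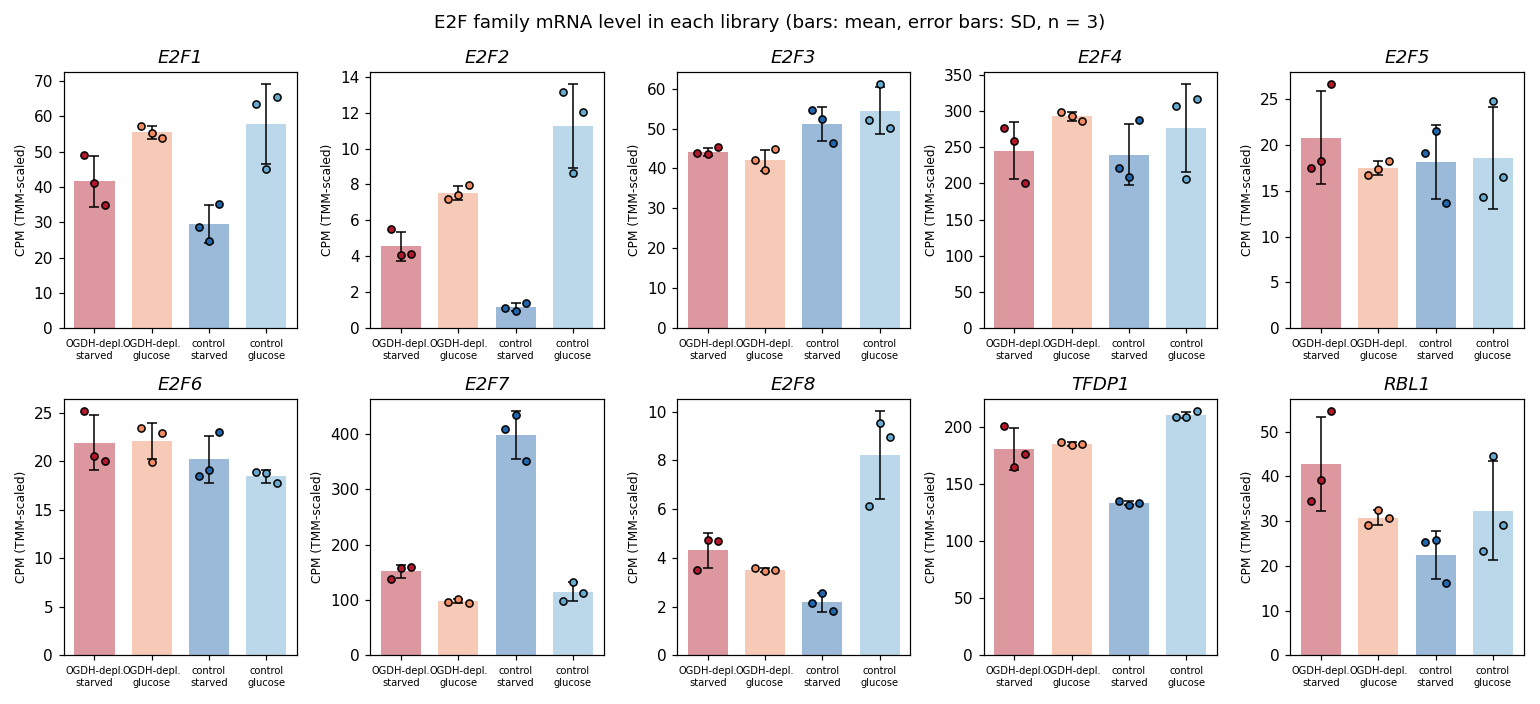
TMM-scaled CPM of the 10 genes in each of the 12 libraries, by group, with bars for the mean and error bars for the SD of n = 3. The starved control libraries are the lowest of the 4 groups for E2F2, with 0.967 to 1.43 CPM, and the highest for E2F7, with 351 to 434 CPM.

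**Figure D2:**
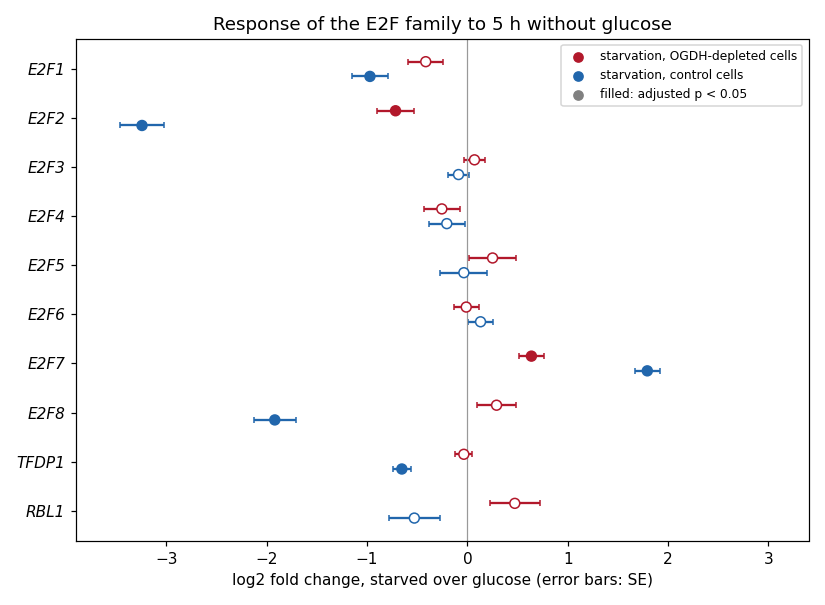
Log2 fold change (starved over glucose, error bars SE) of each member in OGDH-depleted cells and in control cells, with filled points past an adjusted p of 0.05. E2F2 stands at -0.72 in OGDH-depleted cells and -3.24 in control cells, and E2F7 at 0.64 in OGDH-depleted cells and 1.79 in control cells.

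The activator genes carry E2F words close to their starts, and their promoters are shown because E2F genes are themselves read by E2F proteins in textbook accounts of the cell cycle. The words TTTCCCGC, TTTCGCGC, TTTGCCGC and TTTGGCGC were searched on both strands. The windows ran from 250 bases before to 50 after the start in RefSeq (GRCh38.p14). Windows of 8 of the 10 members were searched, and the promoters of E2F5 and E2F8 were not examined. At least 1 of these words stood in 3.31% of 35116 windows, and 0.145% held them at 2 or more positions. The E2F1 and RBL1 windows held 2 positions each, and those of E2F2, TFDP1 and the first of the E2F3 windows held 1 each. The windows of E2F4, E2F6, E2F7 and the second of E2F3 held 0. The word CCAAT, searched on both strands and overlapping no E2F word in these windows, stood at 4 positions in the E2F7 window, at 4 in the first E2F3 window and at 3 in the E2F1 window, and in 34.6% of all windows. The words TTTGAA and TTCGAA, also searched on both strands, stood once, in the first E2F3 window, and in 16.4% of all windows. The 150 bases before the start follow for the activators, RBL1 and E2F7, 5′ to 3′ on the strand of the gene, with E2F words of either strand in capitals. They lie at chr20:33686386-33686535, chr1:23531234-23531383, chr20:37095998-37096147 and chr12:77065570-77065719 on the minus strand and at chr6:20401729-20401878 on the plus strand.
E2F1: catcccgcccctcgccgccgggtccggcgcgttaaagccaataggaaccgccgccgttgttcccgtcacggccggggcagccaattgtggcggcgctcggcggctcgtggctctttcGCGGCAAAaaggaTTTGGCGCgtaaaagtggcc
E2F2: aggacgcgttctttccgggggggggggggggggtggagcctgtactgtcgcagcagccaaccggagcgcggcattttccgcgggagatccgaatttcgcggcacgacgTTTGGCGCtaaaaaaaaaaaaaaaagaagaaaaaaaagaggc
E2F3: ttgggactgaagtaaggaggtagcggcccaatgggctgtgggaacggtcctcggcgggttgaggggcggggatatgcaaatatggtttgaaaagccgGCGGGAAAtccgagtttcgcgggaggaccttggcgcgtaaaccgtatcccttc
RBL1: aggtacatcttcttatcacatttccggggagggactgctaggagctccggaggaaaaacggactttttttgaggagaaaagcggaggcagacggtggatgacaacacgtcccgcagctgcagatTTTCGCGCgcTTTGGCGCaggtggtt
E2F7: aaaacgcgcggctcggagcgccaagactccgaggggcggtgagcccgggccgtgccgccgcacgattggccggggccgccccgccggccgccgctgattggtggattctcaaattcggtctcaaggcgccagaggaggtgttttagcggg
A word match describes these letters and does not show binding. Of those whose windows hold a word, E2F1, E2F2 and TFDP1 fell in starved control cells, and RBL1 (log2 fold change -0.53) and E2F3 (-0.089) were not called. Of those without one, E2F7 rose and E2F4 (-0.21) and E2F6 (0.13) were not called. These calls are from all libraries. E2F4 was called lower (-0.54) without the 3 outlying libraries, and RBL1 was called lower (-0.62) with a GC offset. E2F8, which also fell, had no window to search, and a link between words and response was not tested.

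E2F2, an activator on chromosome 1 (chr1:23506438-23531233, minus strand, hg38), gave the largest fold change of the 10 members. It stood at 5.51, 4.08 and 4.10 CPM in starved OGDH-depleted libraries, 7.17, 7.42 and 7.95 CPM in OGDH-depleted libraries with glucose, 1.12, 0.967 and 1.43 CPM in starved control libraries, and 13.1, 8.65 and 12.01 CPM in control libraries with glucose. The 4 groups did not overlap, and their order was control with glucose, OGDH-depleted with glucose, starved OGDH-depleted and starved control. Starved control cells held 10.6% of the level of control cells with glucose, a log2 fold change of -3.24 (SE 0.22, adjusted p = 7.74e-07). In OGDH-depleted cells starvation changed E2F2 by -0.72 (SE 0.19, adjusted p = 0.043). That call was lost when any 1 of 5 of the 6 libraries was left out, all but starved OGDH-depleted replicate 1, with adjusted p of 0.105 to 0.183. The interaction was 2.53 (SE 0.29, adjusted p = 0.000123), and it stayed between 2.37 and 2.71 when single libraries were left out. Without glucose E2F2 was 3.85-fold as high in OGDH-depleted cells as in control cells (log2 1.94, SE 0.22, adjusted p = 6.48e-05). With glucose it was lower in the OGDH-depleted libraries by a log2 difference that missed the threshold, -0.58 (SE 0.18, adjusted p = 0.127). Without the 3 outlying libraries that difference was -0.75 (SE 0.13, adjusted p = 0.00355) and was called.

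E2F1, the best known activator and itself an E2F target, lies on chromosome 20 (chr20:33675477-33686385, minus strand). It stood at 49.0, 41.0 and 34.7 CPM in starved OGDH-depleted libraries, 57.4, 55.3 and 53.7 CPM in OGDH-depleted libraries with glucose, 28.8, 24.6 and 35.1 CPM in starved control libraries, and 63.3, 44.9 and 65.3 CPM in control libraries with glucose. Starved libraries lay below libraries with glucose in both backgrounds. The outlying library was the highest of the starved control group and the lowest of the starved OGDH-depleted group and of the control group with glucose. In the starved OGDH-depleted group replicate 1 lay further from replicate 2 than the outlying library did. E2F1 fell in starved control cells to 51.0% of the level with glucose (log2 fold change -0.97, SE 0.18, adjusted p = 0.00135). In OGDH-depleted cells the change was -0.42 (SE 0.18, adjusted p = 0.180). Without glucose E2F1 differed by 0.49 between OGDH-depleted and control cells (SE 0.18, adjusted p = 0.056), and the interaction was 0.56 (SE 0.25, adjusted p = 0.157). Without the 3 outlying libraries these values were -1.28, -0.32, 0.73 and 0.96, with all 4 past the threshold (adjusted p of 1.08e-06, 0.0306, 0.000122 and 0.000212). With a GC offset the difference between OGDH-depleted and control cells was 0.41 without glucose (adjusted p = 0.0005) and -0.26 with glucose (adjusted p = 0.031). With all libraries and no offset the difference with glucose was -0.061 (adjusted p = 0.898).

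E2F3, the remaining activator (chr6:20401879-20493714, plus strand), was not called for starvation in either background. It stood at 43.7, 43.5 and 45.4 CPM in starved OGDH-depleted libraries, 41.99, 39.5 and 44.8 CPM in OGDH-depleted libraries with glucose, 54.7, 52.4 and 46.5 CPM in starved control libraries, and 52.0, 61.1 and 50.1 CPM in control libraries with glucose. The OGDH-depleted libraries lay below the control libraries in both conditions without overlap, and starved libraries overlapped those with glucose in both backgrounds. The starvation log2 fold change was 0.071 in OGDH-depleted cells (95% confidence interval -0.16 to 0.30) and -0.089 in control cells (-0.32 to 0.14). The difference between OGDH-depleted and control cells was -0.37 with glucose (SE 0.10, adjusted p = 0.0929) and -0.21 without it (SE 0.10, adjusted p = 0.159). Without the 3 outlying libraries both passed, at -0.29 (adjusted p = 0.0238) with glucose and -0.32 (adjusted p = 0.00514) without glucose. Both also passed with a GC offset, at -0.32 (adjusted p = 0.00914) with glucose and -0.24 (adjusted p = 0.0101) without glucose.

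Among the repressors, E2F7 (chr12:77021248-77065569, minus strand) was the only member that rose in starved control cells. It stood at 139, 158 and 160 CPM in starved OGDH-depleted libraries, 96.2, 102 and 95.2 CPM in OGDH-depleted libraries with glucose, 410, 434 and 351 CPM in starved control libraries, and 99.1, 134 and 112 CPM in control libraries with glucose. All 3 starved control libraries lay above every library of the other 3 groups, and the starved OGDH-depleted libraries lay above both groups with glucose. E2F7 rose 3.47-fold in starved control cells (log2 1.79, SE 0.13, adjusted p = 1.18e-06) and 1.56-fold in starved OGDH-depleted cells (log2 0.64, SE 0.12, adjusted p = 0.0102). The call in OGDH-depleted cells was lost, with adjusted p of 0.0501 to 0.0511, when starved OGDH-depleted replicate 2 or OGDH-depleted replicate 1 or 3 with glucose was left out. The interaction was -1.16 (SE 0.17, adjusted p = 0.000994). Without glucose E2F7 in OGDH-depleted cells was at 38.2% of its level in control cells (log2 -1.39, SE 0.13, adjusted p = 1.3e-05), and with glucose the difference was -0.23 (SE 0.12, adjusted p = 0.395).

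E2F8, the other atypical member (chr11:19224063-19241620, minus strand), moved the opposite way from E2F7 in starved control cells. It stood at 3.49, 4.75 and 4.70 CPM in starved OGDH-depleted libraries, 3.60, 3.44 and 3.51 CPM in OGDH-depleted libraries with glucose, 2.13, 2.58 and 1.81 CPM in starved control libraries, and 6.14, 9.52 and 8.96 CPM in control libraries with glucose. The control libraries with glucose were the highest and the starved control libraries the lowest, and the OGDH-depleted libraries of both conditions overlapped each other in between. E2F8 fell in starved control cells to 26.4% of the level with glucose (log2 -1.92, SE 0.21, adjusted p = 3.19e-05). In OGDH-depleted cells its change was 0.29 (95% confidence interval -0.14 to 0.73, adjusted p = 0.379), and the interaction was 2.21 (SE 0.29, adjusted p = 0.000336). With all libraries it was the one member called between OGDH-depleted and control cells in both conditions, in opposite directions. E2F2 joined it without the 3 outlying libraries, with a GC offset and without control replicate 2 with glucose, and E2F1 joined it with a GC offset. E2F3 was called lower in both conditions without the 3 outlying libraries and with a GC offset. With glucose E2F8 was lower in OGDH-depleted cells, at 43.0% of the control level (log2 -1.22, SE 0.19, adjusted p = 0.00709), and without glucose it was at 1.99-fold the control level (log2 0.99, SE 0.21, adjusted p = 0.00424).

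E2F4, a repressor that partners with pocket proteins and has the highest mean per kb of exon in every group (chr16:67192155-67198918, plus strand), stood at 276, 259 and 201 CPM in starved OGDH-depleted libraries, 299, 293 and 287 CPM in OGDH-depleted libraries with glucose, 221, 210 and 288 CPM in starved control libraries, and 307, 206 and 316 CPM in control libraries with glucose. In each of 3 groups the outlying library lay far from the other 2, at 0.752, 1.34 and 0.663 times their mean in the starved OGDH-depleted, starved control and control groups. None of the 5 comparisons was called, with log2 values between -0.25 and 0.083. Without the 3 outlying libraries E2F4 was lower in starved control cells (log2 -0.54, SE 0.07, adjusted p = 4.04e-05), higher in OGDH-depleted than in control cells without glucose (0.29, SE 0.07, adjusted p = 0.00417), and the interaction was 0.39 (adjusted p = 0.00583), against -0.049 with all libraries. With a GC offset in place of leaving libraries out, the same 3 values were -0.029, -0.022 and 0.037 and none was called.

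E2F5, the other pocket-bound repressor (chr8:85177154-85217158, plus strand), stood between 13.7 and 26.7 CPM in all 12 libraries, and the 4 groups overlapped. Of its exon bases 18.8% are shared with genes on the opposite strand, mostly RBIS, and fragments there were not counted, so its level is uncertain. None of the 5 comparisons was called. In starved control cells its log2 fold change was -0.035 (95% confidence interval -0.55 to 0.48), and without the 3 outlying libraries it was 0.39 (adjusted p = 0.00647). The interaction was 0.29 (adjusted p = 0.634) with all libraries and turned to -0.38 (adjusted p = 0.0457) without those 3. E2F6, the polycomb-linked repressor (chr2:11444375-11466177, minus strand), stood between 17.7 and 25.1 CPM in all libraries and was not called in any comparison, also without the 3 outlying libraries and with a GC offset. Its starvation log2 fold change was -0.012 in OGDH-depleted cells (95% confidence interval -0.29 to 0.26) and 0.13 in control cells (-0.15 to 0.41). A pseudogene named E2F6P3 held 14 to 62 fragments per library, against 329 to 648 for E2F6, so fragments of E2F6 could be split or lost.

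TFDP1, which encodes the DP partner of most E2F proteins (chr13:113584721-113641473, plus strand), stood at 201, 165 and 176 CPM in starved OGDH-depleted libraries, 187, 184 and 185 CPM in OGDH-depleted libraries with glucose, 136, 132 and 134 CPM in starved control libraries, and 209, 209 and 214 CPM in control libraries with glucose. The 3 starved control libraries lay below every other library, and OGDH-depleted libraries overlapped between conditions. TFDP1 fell in starved control cells to 63.6% of the level with glucose (log2 -0.65, SE 0.09, adjusted p = 0.000151), while in OGDH-depleted cells the log2 fold change was -0.036 (95% confidence interval -0.22 to 0.15). The interaction was 0.62 (SE 0.12, adjusted p = 0.005), and without glucose TFDP1 was higher in OGDH-depleted cells (log2 0.44, SE 0.09, adjusted p = 0.00292). Processed copies named TFDP1P2 and TFDP1P3 held 221 to 454 and 39 to 127 fragments per library, against 2418 to 5273 for TFDP1. Fragments of TFDP1 could thus be split or lost, in a number that is not known.

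RBL1, the pocket protein gene (chr20:36996349-37095997, minus strand), stood at 34.6, 39.2 and 54.5 CPM in starved OGDH-depleted libraries, 29.1, 32.6 and 30.8 CPM in OGDH-depleted libraries with glucose, 25.4, 25.7 and 16.3 CPM in starved control libraries, and 23.3, 44.6 and 29.2 CPM in control libraries with glucose. The outlying library was the extreme one in each of its 3 groups, at 1.48, 0.637 and 1.70 times the mean of the other 2 in the starved OGDH-depleted, starved control and control groups. Without glucose RBL1 was higher in OGDH-depleted than in control cells, with no overlap (log2 0.93, SE 0.25, adjusted p = 0.0173). The difference was 0.74 and missed the threshold (adjusted p = 0.0503) without starved control replicate 3, and it was 0.51 and called (adjusted p = 0.00277) without all 3 outlying libraries. The interaction was 1.002 (SE 0.36, adjusted p = 0.0789) with all libraries and 0.28 (adjusted p = 0.153) without the 3. It was called in DESeq2 (0.98, adjusted p = 0.0455), with no filter on low counts (1.02, adjusted p = 0.016), with a GC offset (0.83, adjusted p = 0.00549) and without control replicate 1 with glucose (1.19, adjusted p = 0.0372). In starved control cells the change was -0.53 (adjusted p = 0.131) with all libraries, -0.045 (adjusted p = 0.751) without the 3 outlying libraries and -0.62 (adjusted p = 0.00221) with a GC offset.

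**Figure D3:**
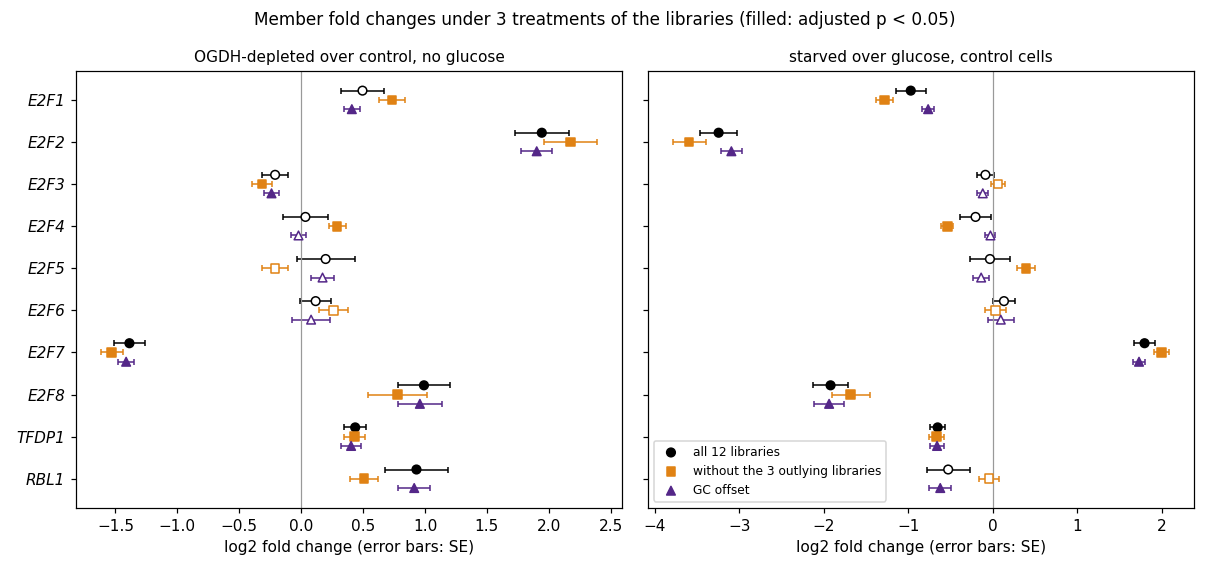
Log2 fold changes (error bars SE) of the 10 members for OGDH-depleted over control cells without glucose and for starved over glucose in control cells, from all 12 libraries, without the 3 outlying ones, and with a GC offset, with filled points past an adjusted p of 0.05. E2F2, E2F7, E2F8 and TFDP1 are filled in all 3 treatments of both panels, whereas E2F1, E2F3, E2F4, E2F5 and RBL1 change sides of 0 or of the threshold in at least 1 panel.

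Leaving out the 3 outlying libraries gave 7 called members in starved against fed control cells (2 higher and 5 lower, beside 60.5% of all tested genes), 3 for starvation in OGDH-depleted cells (beside 17.6%), 3 for OGDH loss with glucose (beside 10.8%), 8 for OGDH loss without glucose (6 higher and 2 lower, beside 52.6%) and 7 for the interaction (5 higher and 2 lower, beside 43%). The count of called genes grew for the whole table as well as for the family. The kept libraries had mitochondrial shares of 14.4% and 13.2% in starved control cells and 4.97% and 6.35% in control cells with glucose. In starved OGDH-depleted cells the kept libraries had 3.06% and 5.12%. Their GC slopes, each against its own group's mean, were negative in starved control cells and positive in the other groups named. In this setting the part of these deviations cannot be told apart from the group.

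Per kilobase of exon, E2F4 was the most abundant member in every group, at 68.3 ± 10.9 in starved OGDH-depleted cells, 81.5 ± 1.75 in OGDH-depleted cells with glucose, 66.7 ± 11.8 in starved control cells and 76.9 ± 16.9 CPM per kb in control cells with glucose (SD, n = 3 each). In control cells with glucose the order after E2F4 was TFDP1 with 56.2, E2F1 with 21.5, E2F7 with 18.3, E2F3 with 10.5, RBL1 with 5.44, E2F6 with 4.53, E2F5 with 3.10, E2F2 with 2.06 and E2F8 with 1.99 CPM per kb. There the libraries of E2F1 and E2F7 overlapped, as did those of RBL1 and E2F6 and those of E2F5, E2F2 and E2F8 in neighbouring pairs. In starved control cells E2F7 reached 63.3 ± 6.78 CPM per kb and overlapped E2F4, while E2F2 was the lowest member at 0.215 ± 0.0432 CPM per kb. In starved OGDH-depleted cells E2F7 stood at 24.2 ± 1.88 CPM per kb, below TFDP1 and above E2F1 without overlap.

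As a share of the summed CPM per kb of E2F1 to E2F8, E2F7 took 19.2 ± 3.05% in starved OGDH-depleted cells, 11.4 ± 0.486% in OGDH-depleted cells with glucose, 39.8 ± 5.65% in starved control cells and 13.4 ± 3.74% in control cells with glucose (SD, n = 3 each). The 3 activators together took 19.5 ± 0.811% in starved OGDH-depleted cells, 22.1 ± 0.313% in OGDH-depleted cells with glucose, 13.2 ± 0.641% in starved control cells and 24.6 ± 0.620% in control cells with glucose. Both shares separated starved control libraries from all others. The summed level of the 8 genes was 114 to 136 in starved OGDH-depleted, 134 to 139 in OGDH-depleted with glucose, 156 to 167 in starved control and 119.7 to 151 CPM per kb in control libraries with glucose.

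**Figure D4:**
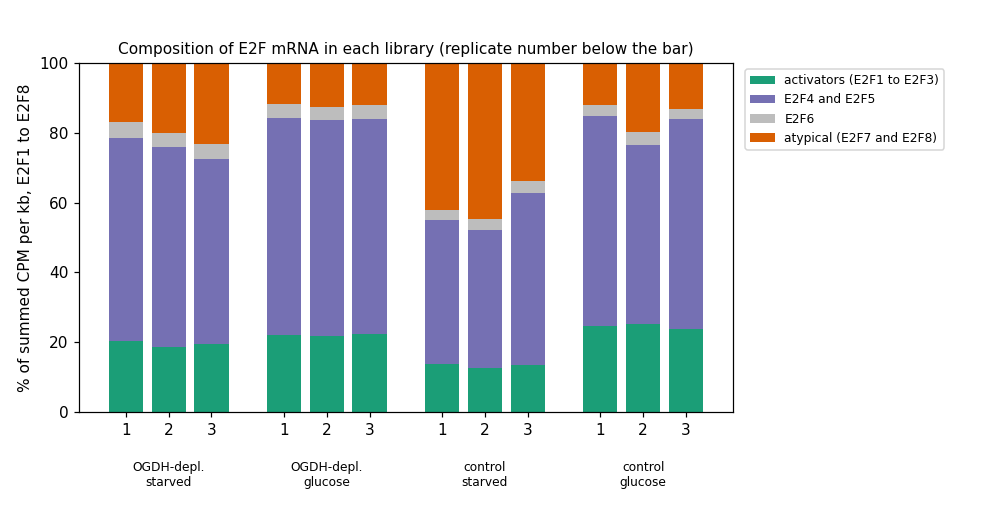
Share of each E2F class in the summed CPM per kb of E2F1 to E2F8, 1 bar per library, in 4 groups. The atypical members take 33.8% to 44.7% of the sum in the starved control libraries and at most 23.2% in any other library.

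Ratios of members within a library do not depend on scaling between libraries. They can still carry the deviations along GC content. The E2F7 transcript holds 43.1% GC, against 62.5% for E2F1 and 57.5% for E2F2, and the part of GC in these ratios was not tested. E2F7 was 21.9, 33.7 and 33.8 times as high per kb as E2F2 in starved OGDH-depleted libraries and 11.7, 11.96 and 10.4 times in OGDH-depleted libraries with glucose, against 317, 390 and 213 times in starved control libraries and 6.56, 13.4 and 8.11 times in control libraries with glucose. The starved control libraries held only 20, 18 and 34 E2F2 fragments, so their ratios to E2F2 are imprecise. E2F7 was 1.21, 1.65 and 1.97 times as high as E2F1 in starved OGDH-depleted libraries and 0.717, 0.790 and 0.757 times in OGDH-depleted libraries with glucose, against 6.09, 7.56 and 4.27 times in starved control libraries and 0.669, 1.27 and 0.734 times in control libraries with glucose. The log2 ratio of E2F7 to E2F2 differed by 1.37 between starved OGDH-depleted cells and those with glucose and by 5.06 between starved control cells and those with glucose. Exact two-sided permutation tests of both gave p = 0.1, the smallest that 3 against 3 libraries allow. The 2 activators E2F2 and E2F1 also moved by unequal amounts, since the log2 ratio of E2F2 to E2F1 differed by -0.30 between starved OGDH-depleted cells and those with glucose and by -2.29 between starved control cells and those with glucose (exact permutation p = 0.1 for each).

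The partners and target genes of the family were described from 5 lists. Cyclins bind kinases that phosphorylate pocket proteins, kinase inhibitors oppose them, and the ubiquitin ligase subunits SKP2, CCNF and FBXW7 set the turnover of cell cycle proteins. Of 22 such regulators 19 were tested, and starvation of OGDH-depleted cells called 0 higher and 3 lower, which were CCND1 (log2 -0.60), CDKN1B (-0.49) and CCNF (-0.41). The median was -0.16, against 0.020 over all tested genes, of which 2.42% were higher and 4.76% lower. Of the 19, 3 were higher and 8 lower in starved control cells, with a median of -0.29. Over all tested genes 17% were higher and 17.5% lower there, with a median of -0.023. CCNE1, the cyclin E1 gene, rose by a log2 fold change of 1.07 (SE 0.09) in starved control cells, together with CDKN2A (1.34) and FBXW7 (0.71). CCNF fell by 1.74 (SE 0.10) and SKP2 by 1.39 (SE 0.11). Without glucose CCNE1 and CDKN2A were lower (log2 -1.17 and -1.21) and CCNF higher (1.13) in OGDH-depleted than in control cells. The pocket protein gene RBL2 was 1 of the 8 that were lower in starved control cells (log2 -0.43), and the RB gene RB1 was not called (0.28, adjusted p = 0.498).

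The G1/S list holds 31 genes of replication licensing and DNA synthesis that are textbook E2F targets. In starved OGDH-depleted cells 0 of 31 passed in edgeR's test and 0 in DESeq2, with 4 at an unadjusted p under 0.05 and a median log2 fold change of -0.040, against 0.020 over all tested genes. Of all tested genes 7.18% passed there in edgeR. Starved control cells had 24 of 31 lower and 1 higher, with a median of -0.74, against -0.023 over all tested genes. Over all tested genes 17.5% were lower and 17% higher. PCNA, the replication clamp, fell by 1.17 on the log2 scale in starved control cells (SE 0.08, adjusted p = 6.86e-07), MCM6 by 1.12 (SE 0.09) and MCM3 by 1.02 (SE 0.10), both subunits of the replicative helicase. CDC6, a licensing factor, was the one that rose (0.43, adjusted p = 0.0015). With glucose 9 of 31 were lower and 0 higher in OGDH-depleted than in control cells, among them GINS2 (-0.61) and MCM3 (-0.60), and the median was -0.37. Of all tested genes 1.45% were lower and 1.59% higher, with a median of -0.014. Those 9 calls became 1 to 6 when any single library of the comparison was left out. Without glucose 11 were higher and 1, CDC6, was lower (-0.98), and the interaction called 16 above 0 and 1 below. Of all tested genes 13.7% were higher and 15% lower without glucose, and the interaction called 8.3% above 0 and 8.95% below. Without the 3 outlying libraries the counts for OGDH loss with glucose were 0 higher and 18 lower, and those for starvation in OGDH-depleted cells were 1 higher and 3 lower. Of all tested genes 10.8% passed for OGDH loss with glucose and 17.6% for starvation in OGDH-depleted cells without those libraries. For OGDH loss without glucose the list then had 20 higher and 2 lower, beside 52.6% of all tested genes called. For the interaction it had 27 above 0 and 2 below, beside 43%.

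The G2/M list holds 20 genes of mitosis, which are read later in the cycle by B-MYB, FOXM1 and the MuvB complex, and 19 were tested. In starved OGDH-depleted cells 0 of 19 passed in edgeR and 0 in DESeq2, with 1 at an unadjusted p under 0.05 and a median of 0.22. Of all tested genes 7.18% passed there in edgeR, with a median of 0.020. Of the 19, 17 were lower and 0 higher in starved control cells, with a median of -1.14. Over all tested genes 17.5% were lower and 17% higher, with a median of -0.023. The kinase genes PLK1 and AURKA fell by 1.51 and 1.38 on the log2 scale in starved control cells, and CCNB1, encoding cyclin B1, by 1.32. Without glucose 17 of 19 were higher in OGDH-depleted than in control cells, with a median of 1.03, and the interaction called 17 above 0. Of all tested genes 13.7% were higher without glucose, and the interaction called 8.3% above 0. With glucose 0 of 19 passed between OGDH-depleted and control cells in edgeR and 1 in DESeq2, with 5 at an unadjusted p under 0.05. Of all tested genes 3.04% passed in that comparison in edgeR, which is 563 genes, against 1172 genes in DESeq2.

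Of the 7 genes of MuvB, B-MYB and FOXM1, 0 passed in starved OGDH-depleted cells in edgeR and in DESeq2, with 0 at an unadjusted p under 0.05. Their median was 0.047, and 7.18% of all tested genes passed there in edgeR. In starved control cells, where their median was -0.20, 3 were lower, which were FOXM1 (log2 -0.96), MYBL2 (-0.68), the B-MYB gene, and RBBP4 (-0.39). Of all tested genes 34.5% were called there. FOXM1 was higher in OGDH-depleted than in control cells without glucose (0.76). Of the 12 partners of E2F6 in the polycomb complex PRC1.6, 0 passed in starved OGDH-depleted cells in edgeR and 1 in DESeq2, with 4 at an unadjusted p under 0.05. Their median was 0.15 there and -0.047 in starved control cells. Without the 3 outlying libraries 2 were higher and 2 lower in starved OGDH-depleted cells, beside 17.6% of all tested genes called. With starvation of control cells 1 was higher, RYBP (1.17), and 2 were lower, HDAC1 (-0.65) and WDR5 (-0.31), beside 34.5% of all tested genes. With a GC offset 3 were higher and 3 lower there, beside 47.2% of all tested genes called. In starved control cells 60.5% of all tested genes were called when the 3 outlying libraries were left out. There the regulators had 5 higher and 11 lower, the G1/S list 2 higher and 26 lower, the G2/M list 1 higher and 18 lower, the MuvB group 2 higher and 3 lower and the PRC1.6 partners 5 higher and 4 lower.

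**Figure D5:**
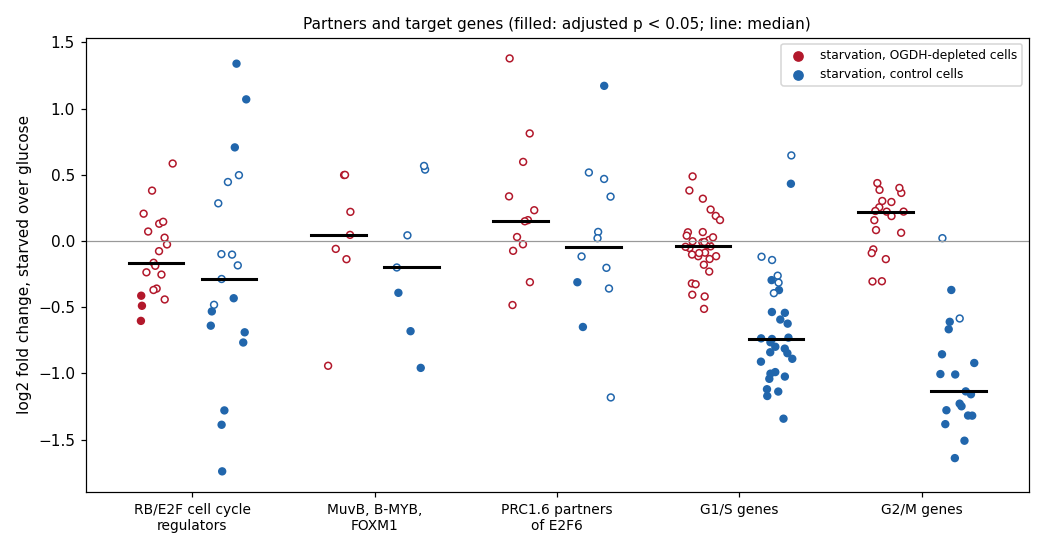
Log2 fold change (starved over glucose) of each tested gene of the 5 lists in OGDH-depleted cells and in control cells, with filled points past an adjusted p of 0.05 and a line at the median of each list. In control cells the G1/S and G2/M medians lie at -0.74 and -1.14, and in OGDH-depleted cells at -0.040 and 0.22.

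Over the 12 libraries E2F1, E2F2 and TFDP1 varied together and against E2F7, given here as a description because the points share 4 groups. E2F3, E2F6 and RBL1 followed neither, with no r above 0.8 in size among their pairs. E2F2 followed TFDP1 (Pearson r of log2 CPM 0.97) and E2F1 (0.94), and E2F7 ran against E2F2 (-0.96), E2F1 (-0.92) and TFDP1 (-0.91). E2F4 ran against E2F5 (-0.87), a pair of high and low GC content. E2F5 and RBL1, both of low GC content, had r of 0.79. E2F1 and E2F2 also lie above E2F7 in GC content, at 62.5% and 57.5% against 43.1%. The part of GC content in any of these correlations, and in the likeness to other genes below, was not tested. Of 45 pairs 4 had r above 0.8 and 4 below -0.8. Among 11133 genes of at least 5 CPM on average, those most like E2F1 were MAP3K11, HPDL, MAP3K6, DDX11 and UHRF1, with r of 0.984 to 0.993. Most like E2F2 were KANK2, CSTF2T, PSRC1, CCNF and GTSE1 (0.987 to 0.990). Most like E2F7 were MAST4, NFIL3, OXSR1, WASHC2A and MIA2 (0.994 to 0.997), of which NFIL3 stood at 8.38 CPM in starved OGDH-depleted cells, 5.12 CPM in OGDH-depleted cells with glucose, 42.8 CPM in starved control cells and 6.55 CPM in control cells with glucose. Most like E2F8 were MCM4, MECOM, SULF2, MYBL2 and SMAD3 (0.963 to 0.972).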

How the data were processed

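RNA of 12 A375 libraries was counted by the authors with featureCounts 2.0.1 as raw counts of fragment pairs over exons, grouped by gene name, without using strand and without fragments that map to several places or overlap several genes, per the file headers. The table also gives the exon length in bases of each gene name, per the file headers. Subread and hg38 are named in the submitters' processing notes, and for the aligner and the kind of library nothing is given in the sources used here. Fragments of near-identical copies and of exons overlapped on the other strand were therefore lost.

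Groups and replicate numbers came from the sample titles. From the deposited counts, 18526 gene names holding 99.87% of counts were kept by filterByExpr (minimum count 10, minimum total 15), scaled by TMM and tested with edgeR 4.0.16 (R 4.3.3, quasi-likelihood) in 1 model with a mean per group. P-values were adjusted by Benjamini-Hochberg over all tested genes, at 0.05. Confidence intervals are 95%. CPM per kb divides CPM by the exon length in the file. The fit was tested on simulated counts for 18217 genes. It found 49% of 2-fold and 91% of 4-fold changes in a simulated starvation of control cells, and 20% and 73% in a simulated interaction. False calls made up 4.11% of the calls in the first and 7% in the second. The counts were drawn for each gene on its own, without the deviations along GC content. These shares therefore need not hold for the real libraries.

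Alternatives were other scalings, DESeq2 1.42.0, other filters, fits on the compared groups only, each library left out, and the replicate block. Leaving out 3 outlying libraries and a GC offset (lowess, span 0.3, transcript GC for 81.86% of tested genes and all 10 members) were chosen after seeing the data. The text names all 10 members, OGDH, up to 3 called genes with the smallest p per list and comparison, and the 5 genes most like each of 4 members. CDKN2A, FBXW7, CDKN1B, RBL2, RB1, MCM3 and NFIL3 are also named where a count or group turns on them, some of them after their values were seen. The members and lists were chosen with earlier results of these data known.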

Additional observations from a re-analysis of the deposited data

Results flagged for a closer look

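For 4 members the starvation response differed between OGDH-depleted and control cells by the interaction test in edgeR. The response in OGDH-depleted minus that in control cells was 2.53 log2 units for E2F2, 2.21 for E2F8, -1.16 for E2F7 and 0.62 for TFDP1. E2F8 had a response of 0.29 in OGDH-depleted cells and -1.92 in control cells, and TFDP1 of -0.036 in OGDH-depleted cells and -0.65 in control cells. All 4 remained called when any single library was left out, without the 3 outlying libraries and with a GC offset.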

How the results depend on the processing

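Among the 5 counts of called members, the 4 other scalings and filters changed none by more than 1.5 times, and no scaling moved the median of all genes by over 0.1. OGDH loss with glucose had 1 called member, against 2 in DESeq2, 3 without the 3 outlying libraries, 4 with a GC offset, and 1 to 2 with single libraries left out. Of all tested genes 3.04% passed there in edgeR with all libraries, 10.8% without the 3 and 9.44% with the GC offset. With all libraries 563 genes were called there in edgeR and 1172 in DESeq2. With single libraries left out 172 to 397 genes were called there in edgeR. OGDH loss without glucose had 8 and the interaction 7 without the 3 outlying libraries. Starvation in OGDH-depleted cells had 0 to 2 called members with single libraries left out. Over all tested genes 583 to 1151 were called in those settings, against 1330 with all libraries. Without the 3 outlying libraries the calls summed over 5 comparisons were 60 for the RB and E2F regulators (35 with all libraries), 13 for MuvB (6), 32 for PRC1.6 (7) and 101 for G1/S genes (63), while calls over all tested genes grew too, as in starved control cells to 60.5%, against 34.5% with all libraries. PRC1.6 had 15 with a GC offset and 5 to 11 with single libraries left out. Without length scaling E2F7 took 28.6% in starved OGDH-depleted cells, 18.2% in OGDH-depleted cells with glucose, 52.4% in starved control cells and 20.8% in control cells with glucose. The causes were not tested.

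Of the correlations of deviations, 8 of 18 between libraries of the same number were above 0.1 (-0.92 to 0.92). Between libraries of other numbers 14 of 36 were (-0.94 to 0.93). The deviations follow GC content in 3 groups, so these values cannot decide whether the numbers pair the samples. The replicate block changed no call among the members, with 4 calls in the interaction and 5 in starved control cells. The replicate block with GC offset gave 3 called members for OGDH loss with glucose and 15 PRC1.6 calls.

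Signs turned only for members that were not called in that comparison with all libraries. For starvation in OGDH-depleted cells, E2F6 was 0.027 without the 3 outlying libraries, and E2F3, E2F5 and E2F4 were -0.040, -0.055 and 0.0081 with a GC offset and -0.040, -0.055 and 0.0082 with the block added. For starvation in control cells, E2F3 was 0.060 and E2F5 0.39 without the 3 libraries. For OGDH loss with glucose, E2F5, E2F4 and RBL1 were 0.17, -0.099 and 0.22 without them, 0.089, -0.059 and 0.086 with a GC offset, and 0.091, -0.059 and 0.093 with the block added. For OGDH loss without glucose, E2F5 was -0.21 without them and E2F4 was -0.022 with a GC offset, with or without the block. For the interaction, E2F3, E2F5 and E2F4 were -0.029, -0.38 and 0.39 without them, and E2F4 was 0.037 with a GC offset, with or without the block. With single libraries left out, E2F4 ran from -0.057 to 0.19 for OGDH loss without glucose, -0.088 to 0.19 with glucose and -0.15 to 0.12 for the interaction. E2F5 ran from -0.19 to 0.23 for starvation in control cells and -0.24 to 0.18 for OGDH loss with glucose. E2F6 ran from -0.12 to 0.062 and TFDP1 from -0.12 to 0.025 for starvation in OGDH-depleted cells. E2F3 ran from -0.15 to 0.00070 for starvation in control cells. E2F1 ran from -0.21 to 0.034 and RBL1 from -0.26 to 0.23 for OGDH loss with glucose. The lowest level, and so the one with the fewest counts behind it, was E2F2 in starved control cells, whereas the widest spreads between libraries were those of RBL1 and E2F5 in control cells with glucose (SD 11.02 on 32.4 CPM and 5.55 on 18.6 CPM, n = 3).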
